A study of Mus musculus with 384 samples.

Results

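The genes described here are 6 fibroblast growth factor (FGF) ligands, Fgf2, Fgf4, Fgf5, Fgf8, Fgf15 and Fgf17, out of 31617 genes counted in single mouse pluripotent stem cells. They were chosen by name, and each was followed as its level in CPM (counts per 1000000 counts) and as the share of cells with at least 5 CPM. FS cells are stem cells of the formative epiblast, the stage between the naive inner cell mass and the epiblast at gastrulation, and EpiSCs are stem cells of later epiblast character. The FS lines 5ar1 and 5ar2 were grown in AloXR (A3XR in the sample labels), a serum-free medium with low activin, the tankyrase inhibitor XAV939 and the retinoic acid receptor inverse agonist BMS493, and no FGF was added. The EpiSC line AFX6 was grown in AFX, with activin, Fgf2 protein and XAV939, and the EpiSC line AF32 in AF, with activin and Fgf2 protein only. All lines were kept on fibronectin. Each line is a single derivation, each EpiSC medium has 1 line, and no FS line received FGF, so line, cell state and medium cannot be told apart. The strain of each line is not given in the sources used here.

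FGFs are secreted proteins that bind receptor tyrosine kinases together with heparan sulfate and switch on the Ras and Erk relay. Response genes of the Etv family and feedback inhibitors such as the Sprouty and Dusp genes follow. In the mouse embryo Fgf4 is made by the inner cell mass and epiblast, Fgf5 is a marker of the epiblast after implantation, and Fgf8 is made at the primitive streak. Fgf17 belongs to the Fgf8 subfamily, Fgf15 is the mouse counterpart of human FGF19, and Fgf2 is the FGF supplied in EpiSC media.

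Of 96 cells per line, 90 of 5ar1, 90 of 5ar2, 66 of AFX6 and 80 of AF32 had at least 3000000 counts and were kept, 326 in all. Kept cells had between 3022666 and 6686007 counts, so that 5 CPM stood for 15.1 to 33.4 counts. The pluripotency gene Pou5f1 was found at 5 CPM in 97.5% to 98.9% of the cells of every line, and Utf1 in 90.0% to 100%. The other pluripotency markers listed, Sox2 and Tdgf1, varied among lines. In 5ar1, 5ar2, AFX6 and AF32, Sox2 was at 5 CPM in 68.9%, 72.2%, 21.2% and 41.3% of cells, and Tdgf1 in 35.6%, 52.2%, 100% and 98.8%. Summed levels of naive, endoderm and trophoblast marker lists were at most 3.97 CPM in every line, and a list of 4 fibroblast markers summed to 16.5 to 50.1 CPM. Zfp42 of the naive list and Cdx2 of the trophoblast list were not found among the genes counted, so these sums leave them out. A list of early neural markers summed to 3.05 to 17.4 CPM, highest in AF32, and a list of primitive streak markers to 26.4 to 73.8 CPM, highest in 5ar1. Single genes and cells weighed on these sums. Eomes gave 61.3 CPM of the streak sum of 5ar1. In AF32 the streak gene T was at 39.1 CPM with 2 cells at 5 CPM, and the neural gene Pax3 at 7.90 CPM with 1 cell. The median number of detected genes was 11371 and 11568 in 5ar1 and 5ar2 and 10328 and 10331 in AFX6 and AF32, and its part in the differences described here was not tested beyond the cell filters given beside them. Counts of 4 Y-linked genes in AFX6 stood at 0.278% of the mean of the other lines. If AFX6 has no Y chromosome, this is a measure of carry-over between lines. The sources used here do not give the sex of the lines, and AFX6 may differ from the others in it.

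The promoters of Fgf4 and Fgf5 are shown because Fgf5 was found in nearly all FS cells and Fgf4 in only part of them. Both come from RefSeq (GRCm38.p6, plus strand, 250 bases ending just before the annotated start), which gave promoters for 3 of the 6 ligands. The RefSeq start of Fgf4 lies inside the gene as GENCODE gives it, downstream of the GENCODE start, and the window is upstream of the RefSeq start only. Capitals mark the motifs searched on both strands, the TATA box (TATAAA, or its variant TATATA), the CCAAT box and the GC box (GGGCGG). Read along the printed strand, a match on the opposite strand shows its reverse complement.
Fgf4, chr7:144861136-144861385: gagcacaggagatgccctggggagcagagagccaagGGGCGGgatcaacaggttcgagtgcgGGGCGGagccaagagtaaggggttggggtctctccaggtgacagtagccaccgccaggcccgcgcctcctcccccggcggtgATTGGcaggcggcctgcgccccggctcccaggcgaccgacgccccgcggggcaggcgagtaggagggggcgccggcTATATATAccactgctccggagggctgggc
Fgf5, chr5:98253934-98254183: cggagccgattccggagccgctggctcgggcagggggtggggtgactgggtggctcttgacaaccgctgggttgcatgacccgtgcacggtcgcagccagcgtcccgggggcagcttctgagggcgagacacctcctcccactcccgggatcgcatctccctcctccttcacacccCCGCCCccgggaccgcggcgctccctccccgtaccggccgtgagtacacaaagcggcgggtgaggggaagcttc
The Fgf4 window held 2 overlapping TATA matches 30 and 28 bases before the start, 1 CCAAT match on the opposite strand and 2 GC boxes. The Fgf5 window held 1 GC box on the opposite strand and neither of the other motifs. Among 32851 RefSeq promoters, 15.6% held a TATA match, 33.8% a CCAAT match and 32.7% a GC box.

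Fgf5 was the ligand that separated FS cells from EpiSCs most clearly. The gene (ENSMUSG00000029337, 3 exons, chromosome 5 from 98254184 to 98277030 on GRCm38) was found at 5 CPM in 92.2% of 5ar1 cells (95% interval 84.6% to 96.8%) and 98.9% of 5ar2 cells (94.0% to 100.0%). In AFX6 the share was 30.3% (19.6% to 42.9%) and in AF32 42.5% (31.5% to 54.1%). These are exact Clopper-Pearson intervals, which cover counting error only. The shares of the FS lines lay far above those of the EpiSC lines, whose intervals overlapped each other.

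Per cell, Fgf5 ran from 0 through a median of 217 to 728 CPM in 5ar1 and from 1.01 through 237 to 853 CPM in 5ar2. In AFX6 it ran from 0 through a median of 0.441 to 535 CPM, and in AF32 from 0 through 0.766 to 305 CPM. The median FS cell was thus well above 5 CPM and the median EpiSC below it, while single EpiSCs reached the FS range. Among the EpiSCs at 5 CPM, the median was 48.7 CPM in AFX6 and 79.0 CPM in AF32, against 227 and 237 CPM in 5ar1 and 5ar2. The EpiSC lines therefore had both fewer cells with Fgf5 and less Fgf5 in those cells. The 5 highest cells gave 69.1% of the Fgf5 counts of AFX6 and 35.6% of those of AF32, but 15.2% and 13.5% in the FS lines.

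Summed over the cells of a line, Fgf5 was 229 CPM in 5ar1, 272 CPM in 5ar2, 30.7 CPM in AFX6 and 44.9 CPM in AF32. The mean was 250 ± 30.3 CPM in FS lines (SD, n = 2) and 37.8 ± 10.1 CPM in EpiSC lines (SD, n = 2), which is 6.61-fold. With 2 lines against 2 the exact permutation test cannot give less than p = 0.333, the value it gave here for the level and for the share. The log2 fold change in edgeR's quasi-likelihood test was 2.72 (SE 0.26), with an unadjusted p of 0.000369 and a Benjamini-Hochberg adjusted p of 0.190, which missed the threshold of 0.05. DESeq2 gave a Benjamini-Hochberg adjusted p of 3.15e-14 in the same direction. Both FS lines had more Fgf5 than both EpiSC lines in all 10 ways of measuring the level and all 11 ways of measuring the share.

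**Figure D1:**
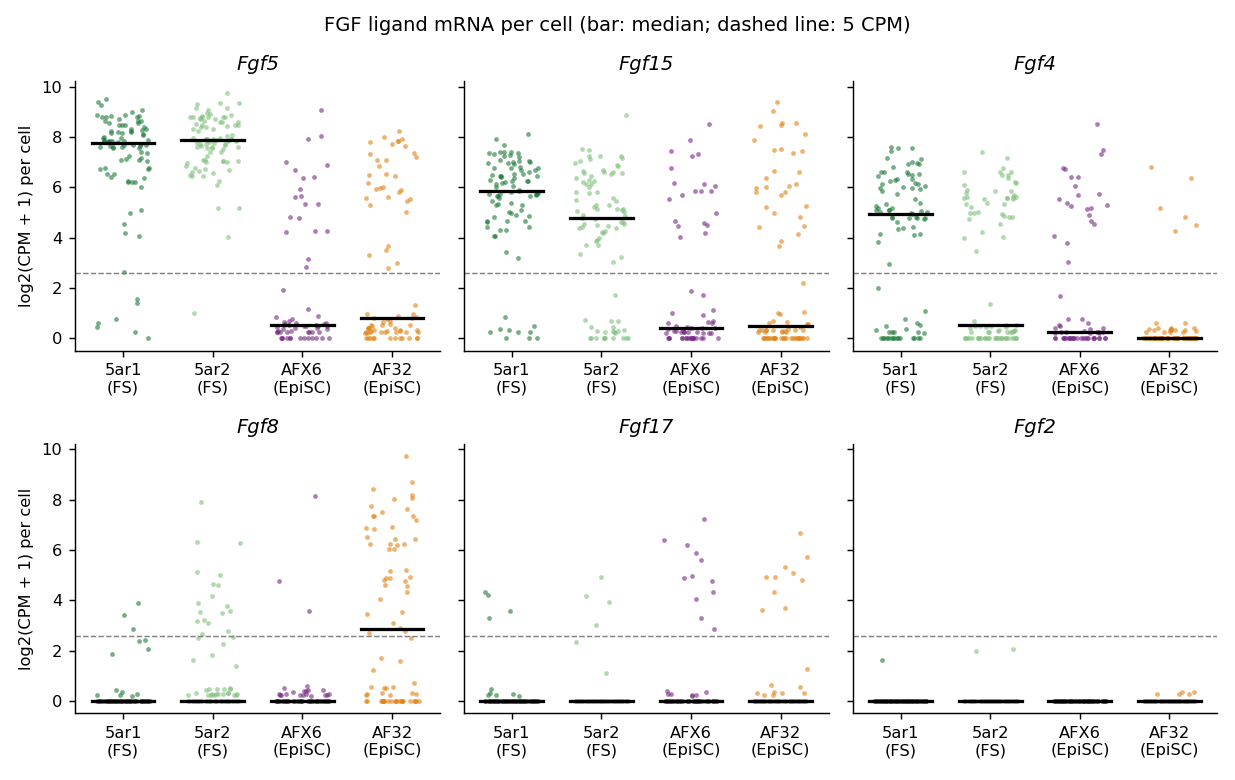
Level of each ligand in every kept cell of the 4 lines, on the vertical axis as log2(CPM + 1), with 1 point per cell, a bar at the median and a dashed line at 5 CPM. Nearly all FS cells lie high for Fgf5, whereas Fgf15 and Fgf4 form a high and a near-zero group in most lines and Fgf8 spreads widely only in AF32.

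Fgf15 was also found in more FS cells, but its summed level did not separate the groups. The gene (ENSMUSG00000031073, 2 exons, chromosome 7 from 144896531 to 144900953) was at 5 CPM in 88.9% of 5ar1 cells and 74.4% of 5ar2 cells, against 31.8% of AFX6 and 38.8% of AF32 cells. Per cell it ran from 0 through a median of 57.4 to 281 CPM in 5ar1, from 0 through 26.4 to 467 CPM in 5ar2, from 0 through 0.340 to 368 CPM in AFX6 and from 0 through 0.415 to 671 CPM in AF32. The highest single cells of all lines were thus EpiSCs of AF32, although most cells of that line had almost none. Summed levels were 72.9, 48.4, 27.6 and 57.7 CPM in 5ar1, 5ar2, AFX6 and AF32, so that AF32 lay between the FS lines.

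The mean Fgf15 level was 60.6 ± 17.4 CPM in FS and 42.7 ± 21.3 CPM in EpiSC lines (SD, n = 2 each), with an exact permutation p of 0.667. The edgeR log2 fold change was 0.51 (SE 0.44) with a Benjamini-Hochberg adjusted p of 0.689. Without the 5 highest cells of each line the order changed, since AF32 fell to 32.5 CPM and AFX6 to 13.0 CPM, below 65.2 CPM in 5ar1 and 38.2 CPM in 5ar2. A share of 24.9% of the Fgf15 exon bases is shared with the antisense gene Gm26793, and Smart-seq2 reads carry no strand, so reads of the pair cannot be told apart there.

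Fgf4 followed a graded order across the lines. The gene (ENSMUSG00000050917, chromosome 7 from 144847367 to 144865243) lies 31287 bases from Fgf15 on the same strand. It was at 5 CPM in 68.9% of 5ar1 cells (58.3% to 78.2%), 46.7% of 5ar2 cells (36.1% to 57.5%), 33.3% of AFX6 cells (22.2% to 46.0%) and 7.50% of AF32 cells (2.80% to 15.6%). The intervals of 5ar2 and AFX6 overlapped, so these neighbours did not differ beyond counting error, whereas AF32 lay below all other lines. Cells ran from 0 to 195 CPM around a median of 30.0 CPM in 5ar1, to 169 CPM around 0.467 in 5ar2, to 365 CPM around 0.203 in AFX6 and to 112 CPM around 0 in AF32. In 5ar2 the cells were therefore split, and the 42 cells at 5 CPM had a median of 46.5 CPM.

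The summed Fgf4 level was 44.2 CPM in 5ar1, 25.8 CPM in AFX6, 25.7 CPM in 5ar2 and 3.73 CPM in AF32. Here AFX6 and 5ar2 differed by less than counting error, and 59.4% of the AFX6 counts came from its 5 highest cells. Between the EpiSC lines Fgf4 was 6.91-fold higher in AFX6 than in AF32 (exact conditional 95% interval 6.52 to 7.33, counting error only), a comparison of 1 line with 1 line that has no replicate check. The mean was 34.9 ± 13.1 CPM in FS and 14.8 ± 15.6 CPM in EpiSC lines (SD, n = 2 each, exact permutation p = 0.667). The edgeR log2 fold change was 1.22 (SE 0.99) with a Benjamini-Hochberg adjusted p of 0.666. In cells with at least 10000 detected genes, Fgf4 was at 32.9 CPM in AFX6 and at 5 CPM in 44.4% of its cells, close to 46.7% in 5ar2.

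**Figure D2:**
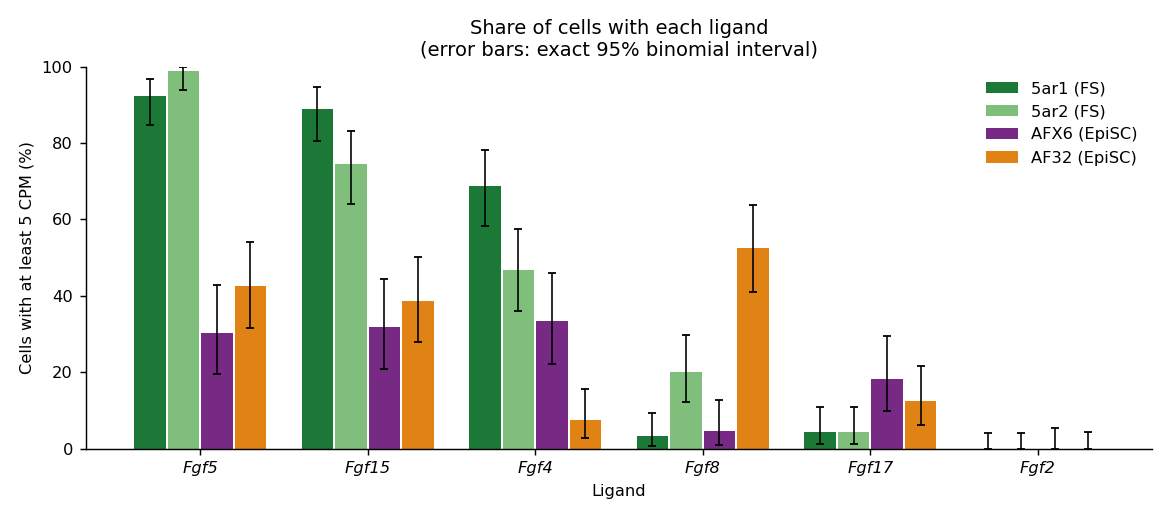
Share of cells with at least 5 CPM of each ligand, in percent, for the 4 lines, with exact 95% binomial intervals as error bars. FS lines stand above EpiSC lines for Fgf5, Fgf15 and Fgf4, AF32 stands above the other lines for Fgf8 with 52.5%, and no line has a cell at 5 CPM of Fgf2.

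Fgf8, the ligand made at the primitive streak, was high in 1 line. The gene (ENSMUSG00000025219, chromosome 19 from 45736798 to 45742915) was at 5 CPM in 52.5% of AF32 cells (41.0% to 63.8%), 20.0% of 5ar2 cells (12.3% to 29.8%), 4.55% of AFX6 cells and 3.33% of 5ar1 cells. In AF32 it ran from 0 through a median of 6.20 to 842 CPM, and the median was 0 in each of the other lines. Their highest cells had 239 CPM in 5ar2, 281 CPM in AFX6 and 13.9 CPM in 5ar1. AFX6 and 5ar1 each had 3 cells with at least 5 CPM of Fgf8.

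The summed Fgf8 level was 66.3 CPM in AF32, 7.50 CPM in 5ar2, 6.06 CPM in AFX6 and 0.529 CPM in 5ar1. AF32 was 10.9-fold above AFX6 (10.5 to 11.5), and 5ar2 was 14.2-fold above 5ar1 (12.4 to 16.3), intervals that again cover counting error only. Among all genes tested, 23.4% were at least 2-fold higher in AF32 than in AFX6 and 13.0% were at least 2-fold higher in 5ar2 than in 5ar1. In AFX6 a single cell gave 87.3% of the counts, and without it the level was 0.787 CPM. FS against EpiSC lines, the edgeR log2 fold change was −3.15 (SE 1.74) with a Benjamini-Hochberg adjusted p of 0.492, and the groups overlapped.

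Cells with at least 5 CPM of a streak gene (T, Mixl1, Foxa2 or Gsc) numbered 17 of 80 in AF32, 9 of 90 in 5ar2, 3 of 66 in AFX6 and 1 of 90 in 5ar1. In 5ar2, 6 of these 9 cells had Fgf8 at 5 CPM, against 12 of the other 81 cells, and the summed Fgf8 level of the line was 7.50 CPM with the 9 cells and 3.56 CPM without them. A single one of the 9 cells held 71.3% of their Fgf8 counts, and without that cell alone the line was at 4.50 CPM. In AF32, 11 of the 17 cells and 31 of the other 63 had Fgf8 at 5 CPM, and the summed level was 66.3 CPM with or without the 17. Fgf5 in AF32 was 96.1 CPM in the 17 cells and 31.0 CPM in the others. These 4 genes are part of a list of 8 streak markers, and the grouping was added after the data were seen. Another gene of the list, Eomes, ran the other way between the groups, at 61.3 and 48.2 CPM in 5ar1 and 5ar2 and at 6.62 and 5.84 CPM in AFX6 and AF32, and was at 5 CPM in 82.2%, 70.0%, 18.2% and 12.5% of their cells.

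Fgf17, a close relative of Fgf8, was low everywhere and lowest in FS cells. The gene (ENSMUSG00000022101, chromosome 14 from 70636203 to 70642268) was at 5 CPM in 4.44% of the cells of each FS line (1.22% to 11.0%), 18.2% of AFX6 cells (9.76% to 29.6%) and 12.5% of AF32 cells (6.16% to 21.8%). The interval of the FS lines overlapped that of each EpiSC line. The median cell had 0 CPM in every line, and the highest cell had 19.2 CPM in 5ar1, 29.2 CPM in 5ar2, 149 CPM in AFX6 and 100.1 CPM in AF32. Summed levels were 0.657 CPM in 5ar1, 0.814 CPM in 5ar2, 8.50 CPM in AFX6 and 4.42 CPM in AF32. Both EpiSC lines were above both FS lines, and their mean was 8.78-fold higher, 6.46 ± 2.89 CPM against 0.735 ± 0.111 CPM (SD, n = 2 each, exact permutation p = 0.333).

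For Fgf17 the edgeR log2 fold change was −3.15 (SE 0.64), with an unadjusted p of 0.0069 and a Benjamini-Hochberg adjusted p of 0.190. The DESeq2 value was −3.17 with a Benjamini-Hochberg adjusted p of 2.93e-06. The order of the lines differed from that of Fgf8, since Fgf17 was higher in AFX6 than in AF32 (1.92-fold, 1.81 to 2.05). Cells with both Fgf8 and Fgf17 at 5 CPM numbered 5 of 80 in AF32 and 0 in each of the other lines.

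Fgf2 mRNA was almost absent. The gene (ENSMUSG00000037225, chromosome 3 from 37348346 to 37410108) had 25 counts in 5ar2, 9 in 5ar1, 5 in AF32 and 0 in AFX6, summed over all kept cells. No cell of 326 reached 5 CPM, and the highest had 3.21 CPM, in 5ar2. Taking a count of 0 to allow up to 3, the 0 counts of AFX6 allow up to 0.00902 CPM, and its 0 of 66 cells at 5 CPM allow a share of up to 4.55%. Fgf2 did not pass the filter on low counts, so it has no edgeR test, and 9.44% of its exon bases are shared with Nudt6 on the other strand.

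Both FS lines lay above both EpiSC lines in summed level for 1 of the 6 ligands, Fgf5, among the 5 that passed the filter on low counts, against 26.8% of all genes tested, and below them for 1, Fgf17, against 21.5%. In the share of cells at 5 CPM they lay above for 3 ligands (Fgf4, Fgf5 and Fgf15), against 39.0% of all genes, and below for 1 (Fgf17), against 8.70%. Non-overlap of 2 and 2 lines was thus common in these data. Fgf2, which was not tested, also had both FS lines above both EpiSC lines, with at most 25 counts in a line. That order of Fgf2 turned when cells with 1000000 counts or more were taken, to 2.92 CPM in AF32 and 0.686 CPM in AFX6 against 0.0206 and 0.0563 CPM in 5ar1 and 5ar2. Very few cells were at 5 CPM of Fgf2 in that setting, 1.08% in AF32, 1.11% in AFX6 and 0 in both FS lines. By edgeR, 0 of 22606 genes passed at a Benjamini-Hochberg adjusted p under 0.05, no ligand among them, while 3636 genes (16.1%) and 2 ligands had an unadjusted p under 0.05. DESeq2 called 1398 genes higher in FS lines (6.28%) and 1529 lower (6.86%), including Fgf5 as higher and Fgf17 as lower. The labels name no culture below the line, so these p-values measure the spread among lines and not among cultures of a line. The EpiSC lines also differ in medium, and this difference is part of their spread.

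**Figure D3:**
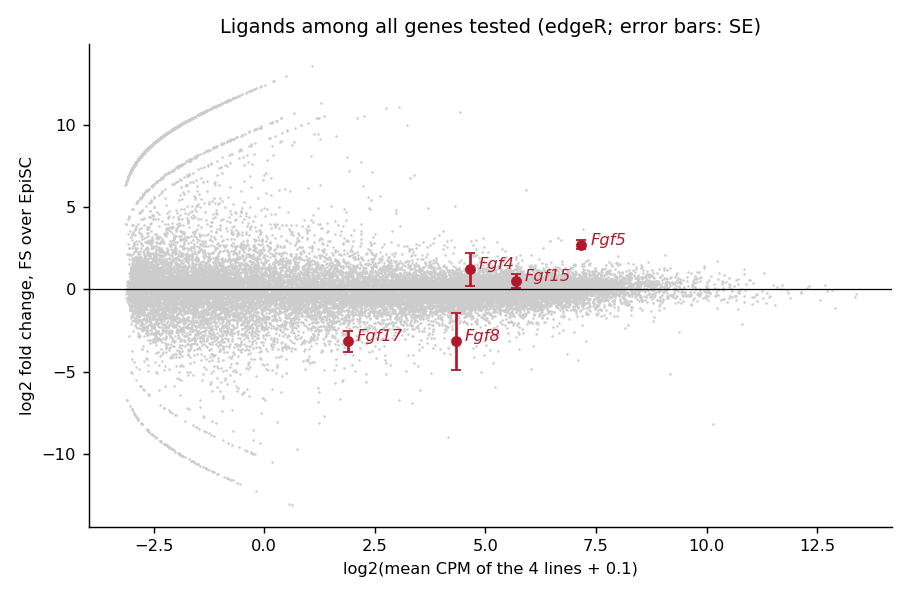
Log2 fold change of FS over EpiSC lines (edgeR, vertical axis) against log2(mean CPM of the 4 lines + 0.1) for all 22606 genes tested in grey, with the 5 tested ligands in red and their SE as bars. Fgf5 lies at 2.72 with a short bar, whereas Fgf8 and Fgf17 both lie at −3.15 and the bar of Fgf8 is much longer.

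Levels of different ligands were compared per kilobase of exon. Fgf5 was the most abundant ligand in both FS lines, at 91.5 and 108.6 CPM per kilobase in 5ar1 and 5ar2, and it made up 68.4% and 77.2% of the mRNA of all secreted FGFs measured. In AFX6 the summed total was spread, with 29.1% Fgf5, 21.4% Fgf15, 19.1% Fgf4, 11.9% Fgf17 and 10.6% Fgf8. Few cells carried these AFX6 values. A single cell gave 87.3% of the Fgf8 counts. For Fgf17, Fgf5, Fgf4 and Fgf15 the 5 highest cells gave 75.5%, 69.1%, 59.4% and 56.6%. In AF32, Fgf8 led with 53.6%, followed by Fgf15 with 20.6% and Fgf5 with 19.6%, and Fgf4 gave 1.28%. The 6 ligands together came to 130 and 139 CPM per kilobase in 5ar1 and 5ar2, 38.9 in AFX6 and 89.7 in AF32, and were 92.1% to 98.4% of the secreted FGF mRNA of a line. With the longest coding transcript as the length, the Fgf5 shares were 60.5%, 70.9%, 24.7% and 16.0% in 5ar1, 5ar2, AFX6 and AF32, and in AFX6 Fgf15 then led with 30.7%.

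**Figure D4:**
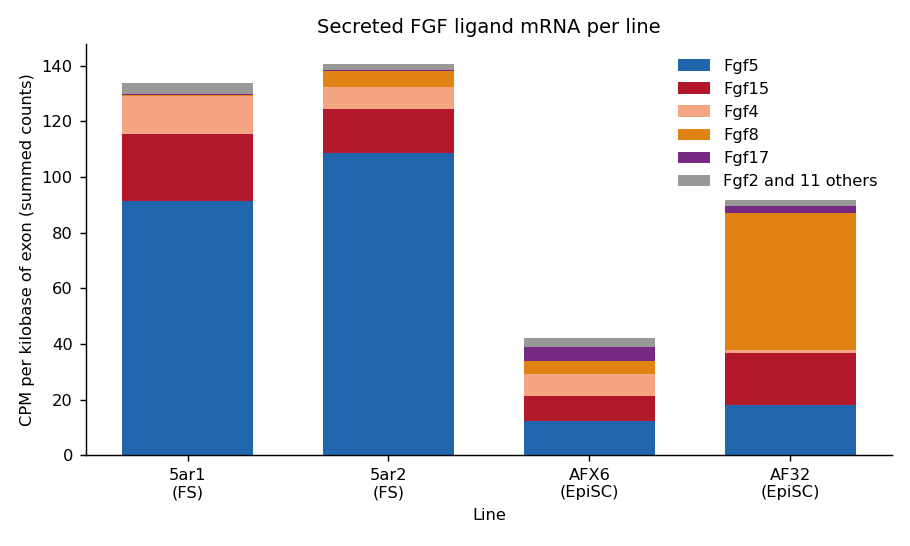
Stacked levels of secreted FGF ligands in each line, in CPM per kilobase of exon. Fgf5 fills most of the bars of 5ar1 and 5ar2, AFX6 has the shortest bar with no leading ligand above 29.1%, and Fgf8 fills 53.6% of the bar of AF32.

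Single FS cells usually carried several ligands. At least 2 ligands were at 5 CPM in 92.2% of 5ar1 and 83.3% of 5ar2 cells, against 36.4% of AFX6 and 56.3% of AF32 cells. None was found in 4 of 90 cells of 5ar1 and 1 of 90 of 5ar2, against 23 of 66 in AFX6 and 21 of 80 in AF32. The combination of Fgf4, Fgf5 and Fgf15 was found in 62.2% of 5ar1 and 38.9% of 5ar2 cells, but in 9.09% of AFX6 and 3.75% of AF32 cells. All 42 Fgf4 cells of 5ar2 also had Fgf5, but so did 89 of the 90 cells of the line, and the product of the shares is 41.5 cells. In AF32 the most frequent pair was Fgf5 with Fgf8, in 28.8% of cells, where the product of their shares is 17.9 of 80 cells and 23 were counted. In AFX6 it was Fgf4 with Fgf5, with 13 of 66 cells counted and a product of 6.67. In 5ar1 and 5ar2 it was Fgf5 with Fgf15, with 77 and 67 cells counted and products of 73.8 and 66.3.

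**Figure D5:**
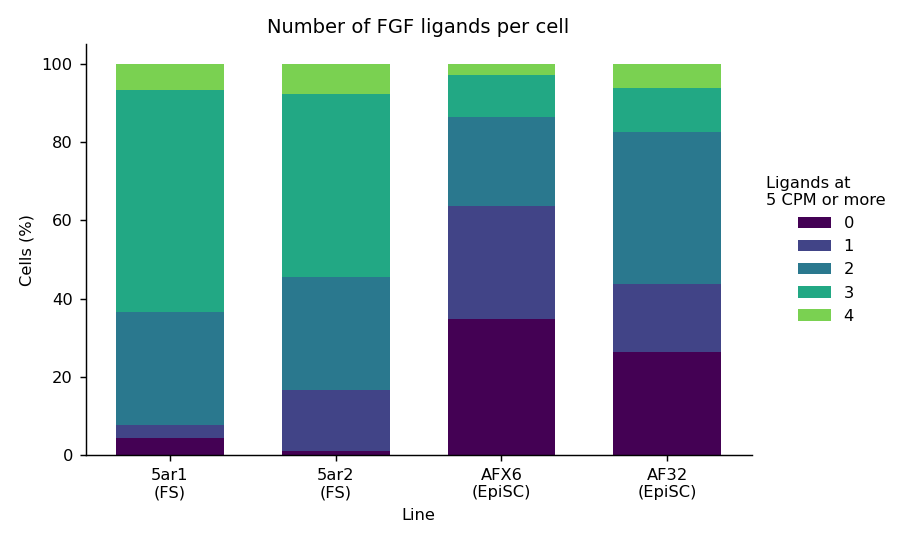
Share of the cells of each line, in percent, with 0 to 4 of the 6 ligands at 5 CPM or more. Cells with 3 ligands are the largest class in 5ar1 (56.7%) and 5ar2 (46.7%), cells with 0 in AFX6 (34.8%) and cells with 2 in AF32 (38.8%).

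Within a line the ligands were only weakly related to each other across cells. Spearman's rho between pairs of ligands across the cells of a line ran from −0.173 to 0.350 with a median of 0.0648 over 40 values. Cells of a line share derivation and medium, and whether they share a library preparation is not given in the sources used here. The neighbours Fgf4 and Fgf15 had values of 0.11, 0.09, 0.08 and 0.25 in 5ar1, 5ar2, AFX6 and AF32. With the counts of a cell, rho of a ligand ran from −0.224 to 0.173, and with its number of detected genes from −0.175 to 0.365, highest for Fgf4 and Fgf5 in AFX6. The gene most like each ligand across cells had a mean rho of 0.430 for Fgf17 (Slc31a2, 2 lines, 146 cells), 0.317 for Fgf5 (Car4, 4 lines, 326 cells), 0.315 for Fgf8 (Gm6278, 2 lines, 170 cells), 0.286 for Fgf4 (Keap1, 3 lines, 246 cells) and 0.204 for Fgf15 (Slc35a2, 4 lines, 326 cells). Each is the highest of a search over 9925 candidate genes. The 99th percentile of mean rho was 0.233, 0.193, 0.197, 0.200 and 0.144 for these ligands in the same order.

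Other genes of the FGF pathway list with 20 to 80 CPM were at 5 CPM in a median of 83.3% and 78.9% of the cells of 5ar1 and 5ar2, and of 62.1% and 68.8% of those of AFX6 and AF32. Fgf4 at 25.8 CPM in AFX6 was found in 33.3% of cells and Fgf15 at 57.7 CPM in AF32 in 38.8%, within ranges of 22.7% to 90.9% and 12.5% to 91.3%. The immediate early genes Egr1 and Fos held the low ends.

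The other genes of the pathway were described by list. Of 71 genes listed, 70 were in the table and 63 were tested, and 0 passed by edgeR, with a median log2 fold change of −0.15 and 39 lower and 24 higher in FS lines. An unadjusted p under 0.05 was reached by 10 of the 63, beside the 16.1% of all genes. The other secreted ligands were low. Per kilobase the highest on average was Fgf21, an endocrine FGF, at 1.02, 1.26, 2.48 and 0.00296 CPM per kilobase in 5ar1, 5ar2, AFX6 and AF32, which was 5.87% of the secreted FGF mRNA of AFX6. Of the intracellular FGF homologous factors, which are not secreted, Fgf13 was the highest at 16.1 to 20.7 CPM. Among receptors Fgfr1 was the highest in CPM and per kilobase, at 168, 175, 144 and 222 CPM in 5ar1, 5ar2, AFX6 and AF32, and was found at 5 CPM in 89.4% to 97.8% of cells. Fgfr2 was at 2.87 to 13.5 CPM. Of the co-receptors for the Fgf15 subfamily Klb was at most 0.0812 CPM and Kl had 0 counts in every line.

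Downstream of the receptors, the feedback inhibitor Dusp6, an Erk phosphatase, was at 144 and 168 CPM in 5ar1 and 5ar2, 417 CPM in AFX6 and 226 CPM in AF32. Its edgeR log2 fold change was −1.06 (SE 0.36) with a Benjamini-Hochberg adjusted p of 0.281. Among feedback inhibitors, 6 of 9 were lower in FS lines and 0 of them passed. Of the signal relay list, 0 of 17 genes passed, and Map2k2, a kinase that phosphorylates Erk, was at 169 to 267 CPM. Among the response genes, 6 of 7 had a negative log2 fold change, with a median of −0.57, and 0 passed. Egr1 and Fos had unadjusted p-values of 0.0230 and 0.0297 by edgeR, with log2 fold changes of −1.99 and −3.34. In 5ar1, 5ar2, AFX6 and AF32, Egr1 was at 20.1, 37.6, 66.7 and 163 CPM and Fos at 2.04, 1.95, 4.97 and 35.7 CPM. Egr1 was at 5 CPM in 30.0%, 38.9%, 22.7% and 37.5% of their cells, so its shares overlapped between the groups. The shares of Fos were 6.67%, 6.67%, 9.09% and 12.5%. The exception in sign, Etv5, was at 210, 152, 215 and 125 CPM in 5ar1, 5ar2, AFX6 and AF32, with a log2 fold change of 0.08 (SE 0.36). Of the heparan sulfate list, whose sugar chains present FGFs to receptors, 0 of 15 genes passed, and the highest, Gpc3, was at 140 CPM in both FS lines, 303 CPM in AFX6 and 232 CPM in AF32. Of the 63 pathway genes tested, 12 had both FS lines above both EpiSC lines in summed level and 15 had both below, beside 26.8% and 21.5% of all genes.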

How the data were processed

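Single cells were sorted into wells and sequenced by Smart-seq2. The authors aligned reads to GRCm38 with STAR 2.7.3a and made the deposited counts per gene with featureCounts 2.0.0. A second deposited table, used only as an alternative, gives a score that the authors made with sctransform, and which of its outputs this is was not given in the sources used here. Cells with at least 3000000 counts were kept and counts summed per line. FS and EpiSC lines (2 against 2) were compared by the quasi-likelihood test of edgeR 4.0.16 in R 4.3.3 (filterByExpr, TMM, Benjamini-Hochberg adjustment over all genes tested), with DESeq2 1.42.0 and limma 3.58.1 as alternatives, and single values by exact two-sided permutation. Intervals are exact at 95% and cover counting error only, since PCR copies of 1 molecule cannot be recognised. Gene lengths and coordinates are from GENCODE on GRCm38. Members, gene lists and tests were chosen with earlier results of these data known. The text names all 6 ligands, the gene with the highest mean CPM in each pathway list (for secreted ligands per kilobase) and the first of the 3 genes most like each ligand. Fgf21, Fgfr2, Klb, Kl, Eomes, T, Pax3, Egr1 and Fos were named after their values were seen. Cells with few detected genes lay below their line's median by over 3 median absolute deviations. That wording does not say whether deviations are scaled to a normal SD, so both readings were run. The unscaled one was added after the scaled cell counts were seen to differ from an earlier analysis of these data.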

Additional observations from a re-analysis of the deposited data

How the results depend on the processing

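With DESeq2 in place of edgeR, calls rose from 0 to 2927 genes, to 2 ligands (Fgf5 and Fgf17) and to 7 pathway genes, 10.8% of the 65 with an adjusted p against 13.1% of all genes. The common dispersion of the 4 lines in edgeR was 0.653, and the cause of the difference between the tools was not tested. Under the other 14 settings, leaving out each line included, all 3 counts stayed at 0 (range 0 to 0 without a line), and no log2 fold change of a tested ligand changed sign. Their size moved, though: Fgf8 went from −3.15 to −0.62 without AF32 and −6.09 without 5ar2, Fgf4 from 1.22 to 0.40 without AF32 and 3.24 without AFX6, and Fgf15 from 0.51 to 0.08 without AFX6, 0.16 without 5ar1 and 1.10 without AF32. Fgf5 stayed between 2.49 and 2.99 and Fgf17 between −3.56 and −2.57 with a line left out. With a line left out, the lone line of its group is assumed to vary like the others, and 1208 to 5192 genes had an unadjusted p under 0.05. By limma 0 genes passed and 4470 had an unadjusted p under 0.05. Limma was run on the mean of log2(CPM + 1) per cell, and sizes moved there too. The log2 fold change was −0.60 for Fgf17, −1.16 for Fgf8, 2.40 for Fgf15, 2.11 for Fgf4 and 4.97 for Fgf5. Of the shares of cells, 234 of 240 values stayed within the counting interval of the main value. Leaving out cells with few detected genes moved no share out of its interval, neither with scaled deviations (1, 1, 0 and 3 cells of 5ar1, 5ar2, AFX6 and AF32) nor with unscaled ones (5, 4, 0 and 5 cells), a reading added after seeing the data. Of the levels, 134 values moved beyond counting error and 82 did not. The FS lines were both above the EpiSC lines in Fgf4 level in 6 of 10 settings, in Fgf15 level in 3 of 10 and in Fgf2 level in 6 of 10. Fgf8 levels in both FS lines were below both EpiSC lines in 2 of 10, and AF32 was highest in 10 of 10. No paired analysis was possible because cell numbers only name wells and the lines carry no shared number. Depth limits Fgf2, which had at most 25 counts in a line.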

Other observations

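Mean expression of chromosome 19, where Fgf8 lies, differed among cells, and Fgf8 was set beside it. In 5ar2, cells in which the mean expression of the other chromosome 19 genes exceeded 1.2 times the cell's autosomal level had Fgf8 at 5 CPM in 21.2% (52 cells), against 18.4% of the other 38 cells, while the mean Fgf8 level per cell was 4.64 CPM against 10.6 CPM. In AF32 the values were 38.9% of 18 cells and 56.5% of 62 cells, and means of 45.5 and 68.0 CPM. In both lines the cell with the most Fgf8 was in the group with the higher mean. This cell held 40.8% of the Fgf8 counts of 5ar2 and 17.6% of those of AF32, so the means rest on few cells. The sum of the 6 ligands per kilobase was set beside Dusp6, Etv5 and Spry2 across cells. Spearman's rho across the 90 cells of 5ar1 was 0.378, 0.370 and 0.327, and in 5ar2 it was 0.00, 0.01 and 0.01. In AFX6 it was −0.123, 0.111 and 0.199, and in AF32 −0.102, 0.044 and −0.012. With Spry4, Etv4 and Dusp4 it was 0.194, 0.140 and −0.00483 in 5ar1. Over all these genes and lines rho had a median of 0.0467 and ran from −0.209 to 0.378 (24 values). These are descriptions, and cells of a line share derivation and medium.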
